A study of Mus musculus with 2 samples.

Results

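Chromatin at 8 cytotoxic effector genes was described in libraries labelled as thymus: the granzyme genes Gzma, Gzmb and Gzmk, the perforin gene Prf1, the death ligand gene Fasl, the granule membrane gene Nkg7, and Tbx21 and Eomes, which encode the T-box factors T-bet and eomesodermin. The genes were chosen by name, and each was taken as its GENCODE gene body with 20 kb on either side, here called its domain. All 8 were found among 21938 protein-coding genes on chromosomes 1 to 19, X and Y. The data were DNase-seq, in which DNase I cuts DNA where chromatin is open and the cut ends are sequenced. There were 2 libraries in 1 group, each labelled as made from the thymus of a male of the F1 hybrid strain B6CASTF1/J at 36 days of age, with no treatment or added allele given. They are labelled as biological replicates 2 and 1, and are named below by that number as the library labelled 2 and the library labelled 1. Their descriptions number the males differently, yet the donor identifier is shared, and whether they came from separate mice is not settled.

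Cytotoxic lymphocytes kill target cells by releasing granules in which perforin opens a way through the membrane for granzymes, which are serine proteases that start cell death, or by showing Fas ligand to the Fas receptor. T-bet and eomesodermin drive this program in natural killer cells and activated CD8 T cells. Most thymocytes are immature T cells that have not entered it, while small populations in the thymus, such as natural killer and innate-like T cells, use parts of it.

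Open chromatin was read from peaks, each with the signal that the authors gave it, and from footprints, short stretches inside open DNA that were cut less than their surroundings. Each library has a shorter and a longer peak list. The shorter holds 60644 peaks in the library labelled 2 and 85367 in the library labelled 1, and is used unless the longer is named. A promoter peak lay within 1 kb of any annotated start of the gene, and a distal peak lay in the domain beyond 1 kb of every annotated start of any gene. Positions in kb run along transcription from the most upstream start of a coding transcript, with negative values upstream. Depth per library is unknown, and with 2 libraries in 1 group no test could be made.

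The labelled tissue was checked against marker genes. Of 20 T cell and thymocyte markers, 20 had a promoter peak in the library labelled 2 and 4 in the library labelled 1. Among those without one in the library labelled 1 were Cd3e, Cd8a and Rag1, which encode a T cell receptor subunit, a coreceptor and a recombinase. For 15 pancreatic acinar markers the counts were 5 in the library labelled 2 and 15 in the library labelled 1. Distal peaks summed over the acinar markers came to 20 in the library labelled 2 and 301 in the library labelled 1. For the T cell markers the sums were 256 in the library labelled 2 and 49 in the library labelled 1. A peak in the domains of more than 1 marker counts for each. The median per gene in the library labelled 2 was 1 for acinar markers, 6 for T cell markers and 1 over all genes. In the library labelled 1 these medians were 18, 2 and 2. In lists of 6 markers each, the library labelled 2 had promoter peaks at 2 B cell, 2 myeloid, 2 thymic epithelial and 0 liver markers, and the library labelled 1 at 2 B cell, 1 myeloid, 3 thymic epithelial and 4 liver markers. The library labelled 1 therefore goes against its tissue label, and counts and signals below are given for each library on its own. Shared peaks, overlapping footprints and signal ratios compare libraries whose markers differ in this way. The part of these marker differences in the results was not tested.

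A promoter peak was found at 4 of the 8 genes in the library labelled 2, namely Prf1, Fasl, Tbx21 and Eomes, and at 0 of 8 in the library labelled 1. Over all protein-coding genes the shares were 60.1% in the library labelled 2 and 63.1% in the library labelled 1. None of the 8 genes had a promoter peak in both libraries, as 56.7% of all genes did. The 4 genes with a promoter peak in the library labelled 2 alone compare with 3.37% of all genes, and the 0 genes with one in the library labelled 1 alone compare with 6.41%. Gzma, Gzmb, Gzmk and Nkg7 had no promoter peak in either library, which was so for 33.5% of all genes. In the longer lists, the same 4 genes had a promoter peak in the library labelled 2 (64.7% of all genes), and Tbx21 was the 1 gene with a promoter peak in the library labelled 1 (67.2% of all genes). In bulk tissue, fewer cells with an open promoter and a less open promoter in each cell cannot be told apart.

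The 4 promoters that were open were weakly so. The highest promoter signal in the library labelled 2 was 3.22 at Prf1, 2.02 at Eomes, 1.17 at Fasl and 1.06 at Tbx21, against a median of 7.84 over the 13176 genes with a promoter peak there. Prf1 stood above 23.3% of those genes, Eomes above 15.6%, Fasl above 8.89% and Tbx21 above 7.88%. All 4 thus lay low in the range of open promoters. The 13843 genes with a promoter peak in the library labelled 1 had a median of 4.75.

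**Figure D1:**
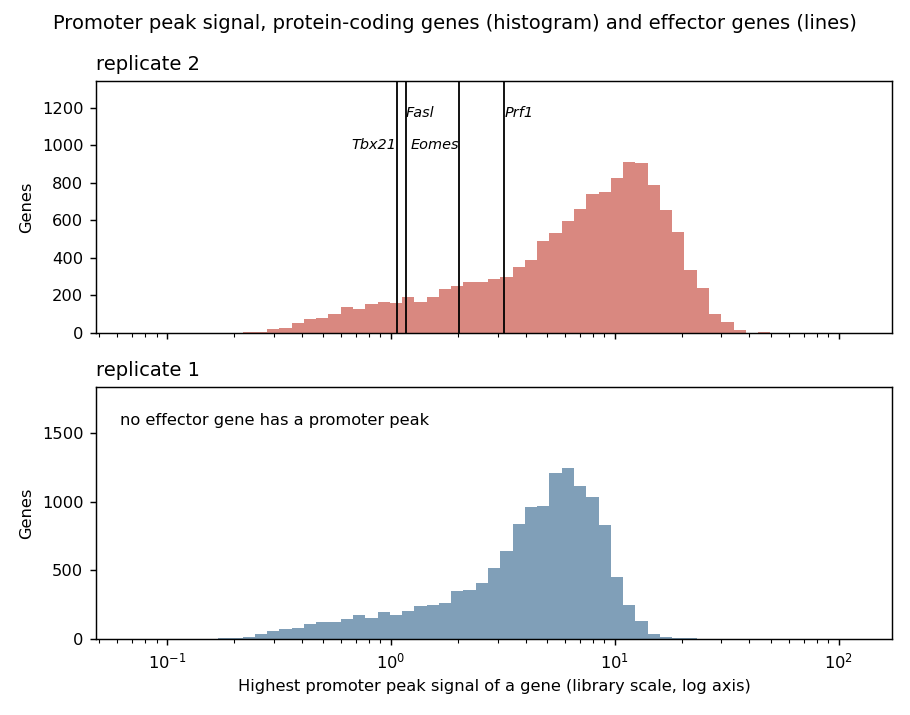
Highest promoter peak signal of each protein-coding gene with a promoter peak (horizontal log axis, in the signal scale of each library), counted in bins, for the library labelled 2 (top) and the library labelled 1 (bottom). Black lines mark Tbx21 at 1.06, Fasl at 1.17, Eomes at 2.02 and Prf1 at 3.22 in the library labelled 2, all left of the median of 7.84, and there is no line in the other library.

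The 8 domains held 25 peaks in the library labelled 2 and 15 in the library labelled 1. Of the 25 peaks, 8 were at the genes' own promoters, 11 were distal and 6 were at the promoters of neighbouring genes. Of the 15 peaks in the library labelled 1, 0 were at own promoters, 10 were distal and 5 were at neighbours' promoters. Peaks found in the longer lists only numbered 11 in the library labelled 2, with signals of 0.408 to 0.740, and 15 in the library labelled 1, with 0.165 to 0.651. At least 1 distal peak was present at 5 of the 8 genes in the library labelled 2 (61.8% of all genes) and at 4 of 8 in the library labelled 1 (70.2% of all genes). Fasl, Tbx21 and Nkg7 had at least 1 distal region with a peak in both libraries, which makes 3 of the 8 genes against 51.3% of all genes. No peak lay in the domain of 2 genes in the library labelled 2, Gzma and Gzmb (21.2% of all genes), and of 3 genes in the library labelled 1, Gzma, Gzmb and Prf1 (17.1% of all genes). Gzmb was the 1 gene of the 8 without a peak in any of the 4 lists, as were 10.9% of all genes. In the library labelled 2 the promoter share of the 8 genes was a little below the background and the distal share near it. In the library labelled 1 both shares were below it. With 8 genes, each gap rests on few genes. The domains were also shorter, with a median of 47.5 kb against 57.4 kb over all genes. Distal peaks per 100 kb had medians of 2.13 against 1.60 over all genes in the library labelled 2, and 1.06 against 2.17 in the library labelled 1.

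A peak in the other library overlapped 10 of the 25 peaks of the library labelled 2 and 10 of the 15 peaks of the library labelled 1. Over all peaks these shares were 60.6% in the library labelled 2 and 43.1% in the library labelled 1. By class, 0 of the 8 own-promoter peaks, 5 of the 11 distal peaks and 5 of the 6 peaks at neighbours' promoters of the library labelled 2 had such a partner. Over all peaks of the library labelled 2 the shares were 75.9% of those within 1 kb of any annotated transcript start and 49.1% of the distal ones. The 8 own-promoter peaks could have none, since the library labelled 1 had no peak at these promoters. The deposited tables list each interval with a false discovery rate (FDR) under 0.05. The library labelled 1 had no listed interval at 12 of the 25 domain peaks of the library labelled 2, against 29.9% of all peaks of the library labelled 2. Among the peaks without a partner the count was 12 of 15, against 75.8% of all such peaks. It was 7 of 8 at own promoters, against 57.3% of all promoter peaks without a partner, and 5 of 6 at distal places, against 82.4% of all distal ones. In the other direction, the library labelled 2 had no listed interval at 3 of the 15 domain peaks of the library labelled 1, against 45.8% of all its peaks, and at 3 of the 5 without a partner, against 80.4%. For peaks of the library labelled 2 without a partner, the domain count was thus near the background in all and at distal places. The 8 own-promoter peaks came from 4 genes, with 4 of the peaks at Tbx21, and these genes had no promoter peak in the library labelled 1. The 57.3% covers peaks near any start, whether or not that promoter had a peak there, so no reading is drawn at own promoters.

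**Figure D2:**
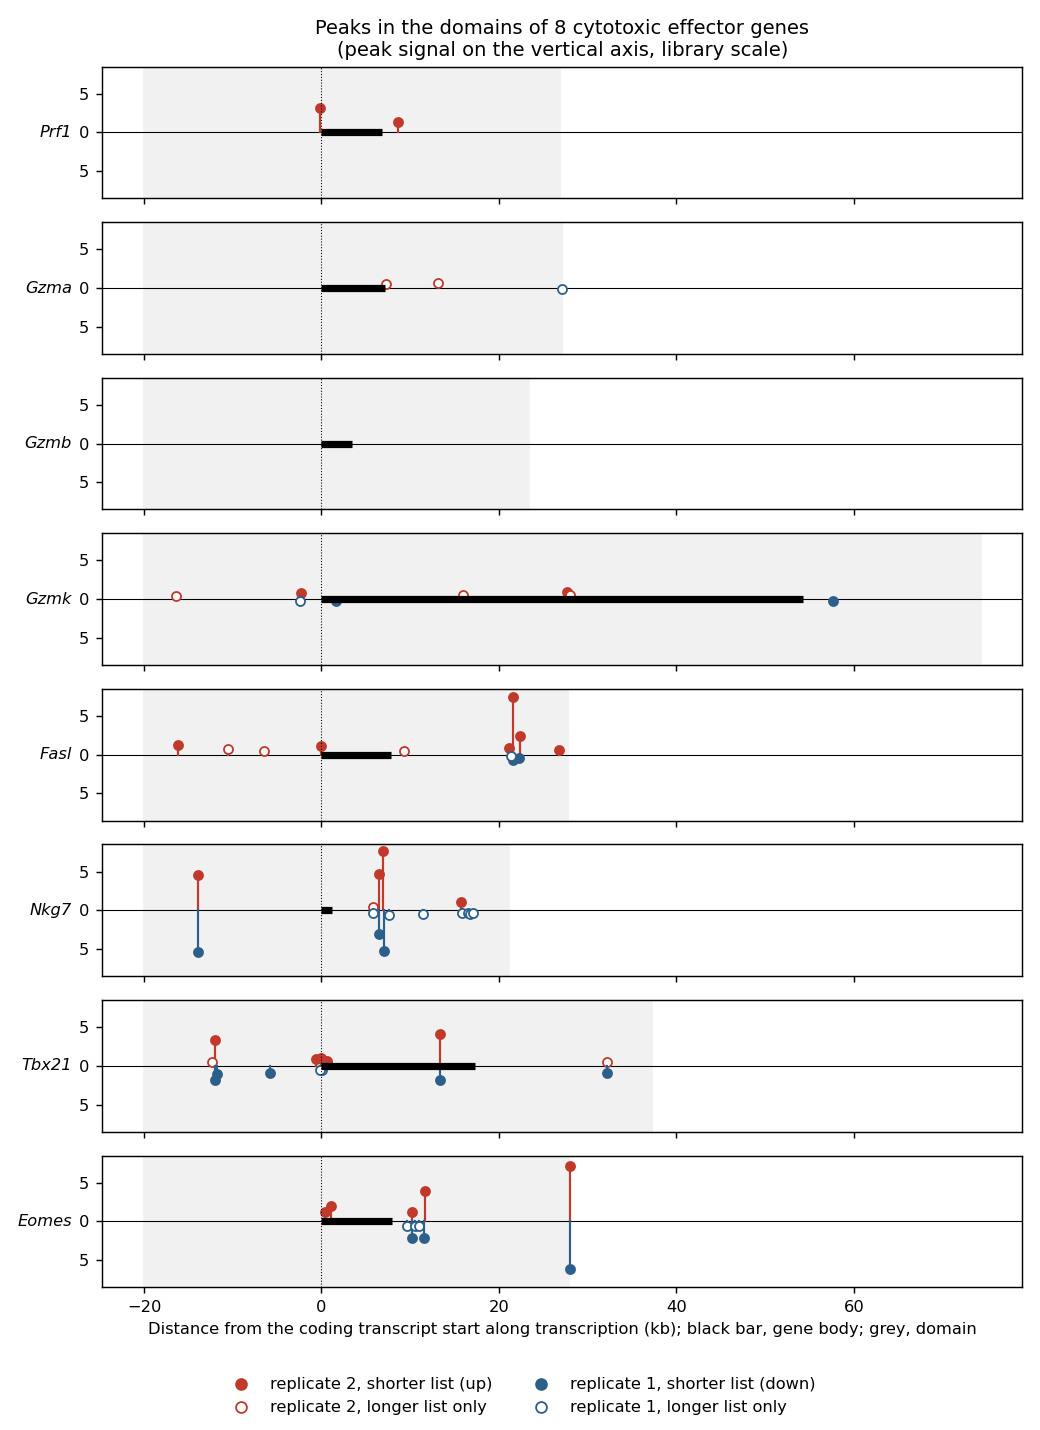
Peaks in the domain of each gene, at their midpoint in kb from the most upstream coding start (horizontal axis), with peak signal drawn upward for the library labelled 2 and downward for the library labelled 1. Filled points are peaks of the shorter lists and open points those of the longer lists only. Gzmb is empty, Gzma has open points only, and the points at 0 kb are filled upward at Prf1, Fasl, Tbx21 and Eomes but not downward.

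Prf1 (ENSMUSG00000037202.6, chr10:61297833-61304680, plus strand, mm10), which encodes the pore-forming protein perforin, was open in the library labelled 2 while the library labelled 1 had no peak there in its shorter or longer list. Its promoter peak, chr10:61297581-61297800 at -0.142 kb, had a signal of 3.22 and a lowest FDR of 2.51e-29. That signal exceeded 70.5% of the peaks of the library. A distal peak lay at 8.61 kb, beyond the 3' end of the gene, between genes at chr10:61306301-61306580, with a signal of 1.30. No FDR interval was listed at either place in the library labelled 1, where the lowest FDR in the Prf1 domain was 0.0369. The nearest peak to the most upstream coding start of Prf1 lay 33 bp away in the library labelled 2 and 38368 bp away in the library labelled 1. The 4 promoter footprints and the 5 footprints of the distal peak are shown in capitals, because they mark which bases were less cut in these Prf1 elements. The sequence is the C57BL/6J reference (GRCm38.p6 from RefSeq, the same assembly as mm10), 5' to 3' on the plus strand, and not the sequence of the hybrid animals.
Prf1 promoter, replicate 2: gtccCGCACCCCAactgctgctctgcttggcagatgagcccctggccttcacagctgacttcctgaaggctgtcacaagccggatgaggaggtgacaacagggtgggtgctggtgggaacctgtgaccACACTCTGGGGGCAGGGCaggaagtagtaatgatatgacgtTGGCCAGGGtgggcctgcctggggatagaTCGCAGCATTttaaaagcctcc
Prf1 8.61 kb, replicate 2: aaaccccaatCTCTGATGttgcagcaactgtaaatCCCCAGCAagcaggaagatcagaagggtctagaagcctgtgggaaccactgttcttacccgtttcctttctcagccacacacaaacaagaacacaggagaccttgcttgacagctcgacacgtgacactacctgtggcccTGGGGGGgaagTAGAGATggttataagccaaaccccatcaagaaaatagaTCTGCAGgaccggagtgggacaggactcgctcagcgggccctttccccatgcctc
The promoter window of 150 bp around the peak centre held the ETS core GGAAGT at 2 places and an E-box (CAGCTG or CAGGTG) at 1, on either strand, but none lay whole in a footprint. The ETS core occurred in the windows of 15.7% of the peaks of the library and the E-box in 28.9%.

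Gzma (ENSMUSG00000023132.8, chr13:113093825-113100981, minus strand), the gene of granzyme A, had no peak of the shorter lists in either library. From the most upstream coding start of Gzma, the nearest such peak was 64821 bp away in the library labelled 2 and 54461 bp in the library labelled 1. Medians of this distance over all genes were 170 bp in the library labelled 2 and 82 bp in the library labelled 1. In the longer lists the library labelled 2 had peaks of 0.663 at 13.2 kb, in an intron of Cdc20b, and 0.578 at 7.30 kb, just past the 3' end of Gzma. The library labelled 1 had 1 longer-list peak of 0.165 at 27.1 kb, in an intron of Cdc20b. These did not overlap between libraries, and the lowest FDR in the domain was 0.00347 in the library labelled 2 and 0.0219 in the library labelled 1. Within 1 kb of a Gzma start, the library labelled 2 had 11 bp of listed interval, with a lowest FDR of 0.0467. The library labelled 1 had none there.

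Gzmb (ENSMUSG00000015437.5, chr14:56258838-56262260, minus strand), the gene of granzyme B, a protease that cleaves caspases, gave nothing in its domain. There was no peak in any list, no listed FDR interval and no footprint in either library. The nearest peak of the shorter list was 25652 bp from the start in the library labelled 2 and 42057 bp in the library labelled 1. An interval with an FDR of 0.05 or more would not be listed, so the level of cutting at Gzmb is not known.

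Gzmk (ENSMUSG00000042385.14, chr13:113171608-113225908, minus strand), the gene of granzyme K, is annotated with coding transcripts that start far apart, at 113225908 and at 113180897. Neither start had a peak or a listed FDR interval within 1 kb in either library. Positions here run from the start at 113225908, whereas the RefSeq promoter of Gzmk lies at chr13:113180916-113181215. The long gene body also spans Esm1, at whose promoter the library labelled 2 had a longer-list peak of 0.578 at 16.0 kb. Weak distal peaks were present in both libraries, but at different places. The library labelled 2 had 0.925 in an intron at 27.7 kb, with 5 footprints, and 0.801 at -2.35 kb, with 1 footprint. The nearest annotated Gzmk start to the peak at 27.7 kb was 17140 bp away. The library labelled 1 had 0.282 past the 3' end at 57.6 kb and 0.282 in an intron at 1.58 kb, both without a footprint and both above only 2.11% of the peaks of that library. At -2.35 kb the library labelled 1 held a longer-list peak of 0.196, and the lowest FDR was 4.67e-06 in the library labelled 2 and 0.0167 in the library labelled 1. The peak at -2.35 kb is printed because it was the one place in the domain where both libraries had a peak in some list. It lies 2280 bp from the start at 113225908 and far from the start at 113180897. It spans chr13:113228188-113228334 and is given on the minus strand, with its footprint of 28 bp in capitals.
Gzmk -2.35 kb, replicate 2: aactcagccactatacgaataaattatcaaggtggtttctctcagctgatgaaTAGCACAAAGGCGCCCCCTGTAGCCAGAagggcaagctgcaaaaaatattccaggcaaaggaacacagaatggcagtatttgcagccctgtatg

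Nkg7 (ENSMUSG00000004612.9, chr7:43437073-43438249, plus strand), which encodes a small protein of the cytotoxic granule membrane, had no promoter peak and no listed FDR interval at its promoter in either library. Its domain nevertheless held strong peaks in both libraries. The distal peak at -13.9 kb, between genes at chr7:43423081-43423260, had a signal of 4.51 in the library labelled 2 and 5.35 in the library labelled 1. It exceeded 78.0% of the peaks of the library labelled 2 and 91.9% of those of the library labelled 1. At the promoter of the neighbour Etfb, which encodes a subunit of a mitochondrial electron carrier, the signals were 4.71 and 7.66 in the library labelled 2 and 3.03 and 5.24 at the overlapping peaks of the library labelled 1. A further Etfb promoter peak at 15.7 kb had 1.12 in the library labelled 2 and, among longer-list peaks, 0.400 in the library labelled 1. The -13.9 kb element is printed for both libraries, on the plus strand with the footprints of each in capitals, because its footprints nearly coincide.
Nkg7 -13.9 kb, replicate 2: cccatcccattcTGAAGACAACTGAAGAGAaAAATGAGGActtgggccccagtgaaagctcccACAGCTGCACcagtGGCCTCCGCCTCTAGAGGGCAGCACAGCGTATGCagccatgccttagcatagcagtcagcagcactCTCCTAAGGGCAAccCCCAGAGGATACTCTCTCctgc
Nkg7 -13.9 kb, replicate 1: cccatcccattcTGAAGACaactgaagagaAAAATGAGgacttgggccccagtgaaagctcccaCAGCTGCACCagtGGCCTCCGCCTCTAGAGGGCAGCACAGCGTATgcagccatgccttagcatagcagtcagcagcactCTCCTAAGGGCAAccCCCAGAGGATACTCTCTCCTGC
All 6 footprints that the library labelled 2 had within this peak overlapped a footprint of the library labelled 1. The widest, of 34 bp in the library labelled 2 and 32 bp in the library labelled 1, held the core of the CTCF site, written CNAGNNGGC and searched on both strands. CTCF is a DNA-binding protein that anchors chromatin loops in most cell types. The next footprint upstream held an E-box in both libraries.

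Fasl (ENSMUSG00000000817.10, chr1:161780689-161788495, minus strand), the gene of Fas ligand, had 6 peaks in the library labelled 2 and 2 in the library labelled 1. Its promoter peak at -0.038 kb, chr1:161788406-161788660, had a signal of 1.17, with 2 footprints, and no FDR interval was listed at the promoter in the library labelled 1. The strongest peak of the domain lay downstream of the gene at 21.6 kb, where the signal was 7.45 in the library labelled 2 and 0.713 in the library labelled 1. It exceeded 87.0% of the peaks of the library labelled 2 but only 25.2% of those of the library labelled 1. The neighbouring peak at 22.4 kb had 2.38 in the library labelled 2 and 0.408 at the overlapping peak of the library labelled 1. Further distal peaks, all without a partner, had 0.632 at 26.8 kb, 0.886 at 21.1 kb and 1.26 at -16.2 kb in the library labelled 2.

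The Fasl promoter and the element at 21.6 kb are printed on the minus strand, since they were the open start of the gene and the shared region of the 8 domains with the highest ratio of signals between libraries. Of the promoter only chr1:161788496-161788660 is given, which lies outside the exon. The element spans chr1:161766781-161766960 in the library labelled 2 and chr1:161766861-161766980 in the library labelled 1. Capitals mark the footprints of the named library.
Fasl promoter, replicate 2: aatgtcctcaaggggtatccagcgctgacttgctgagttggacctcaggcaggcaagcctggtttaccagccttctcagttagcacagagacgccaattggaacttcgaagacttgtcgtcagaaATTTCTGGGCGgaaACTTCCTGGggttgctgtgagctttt
Fasl 21.6 kb, replicate 2: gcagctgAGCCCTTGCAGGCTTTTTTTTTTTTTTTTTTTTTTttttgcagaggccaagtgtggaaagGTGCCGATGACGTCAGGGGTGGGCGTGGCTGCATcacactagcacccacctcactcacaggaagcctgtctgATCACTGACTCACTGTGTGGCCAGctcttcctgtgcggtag
Fasl 21.6 kb, replicate 1: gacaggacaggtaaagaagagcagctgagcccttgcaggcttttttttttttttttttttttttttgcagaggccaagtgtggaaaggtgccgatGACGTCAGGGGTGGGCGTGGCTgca
In the promoter the ETS core GGAAGT, read here as ACTTCC, lay whole in a footprint, as in 2.89% of all peaks of the library labelled 2. At 21.6 kb, footprints of the library labelled 2 held whole copies of the cAMP response element TGACGTCA and of the AP-1 site TGANTCA, and the windows of 0.704% and 0.214% of all its peaks did so. In the library labelled 1 the peak ended before the AP-1 site, and its single footprint left out the first base of TGACGTCA. These are matches of letters, not identified binding sites.

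Tbx21 (ENSMUSG00000001444.2, chr11:97098071-97115331, minus strand), which encodes T-bet, the factor that directs interferon gamma production and cytotoxic differentiation, had 6 peaks in the library labelled 2 and 5 in the library labelled 1. Its start carried 4 separate promoter peaks in the library labelled 2, with signals of 1.06, 0.863, 0.601 and 0.570. The library labelled 1 had 0 there in the shorter list, and 0.572 and 0.533 in the longer list, where the lowest promoter FDR was 0.00422. Footprints within 1 kb of the start numbered 8 in the library labelled 2 and 5 in the library labelled 1. Both libraries had a peak in an intron at 13.4 kb, with 4.06 in the library labelled 2 and 1.78 in the library labelled 1. Both also had one upstream at -12.0 kb, with 3.29 in the library labelled 2 and 1.76 in the library labelled 1. Within its own library, the intronic peak exceeded 75.8% of peaks in the library labelled 2 and 63.2% in the library labelled 1. A further 3 distal peaks were in the shorter list of the library labelled 1 alone, with 0.956 at 32.2 kb, 0.886 at -5.77 kb and 1.07 at -11.8 kb. The first of these matched a longer-list peak of 0.555 in the library labelled 2, the second had no listed FDR interval there, and the third was covered by a listed interval with a lowest FDR of 1.08e-14 there.

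Both shared Tbx21 elements are printed on the minus strand with the footprints of the named library in capitals, since they were the places at this gene with a shorter-list peak in both libraries. The intronic element is cut to chr11:97101841-97101943, outside an exon. The upstream element spans chr11:97127221-97127400 in the library labelled 2 and chr11:97127241-97127420 in the library labelled 1.
Tbx21 13.4 kb, replicate 2: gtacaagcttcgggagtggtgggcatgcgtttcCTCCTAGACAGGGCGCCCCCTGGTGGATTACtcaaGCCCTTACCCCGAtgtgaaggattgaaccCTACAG
Tbx21 13.4 kb, replicate 1: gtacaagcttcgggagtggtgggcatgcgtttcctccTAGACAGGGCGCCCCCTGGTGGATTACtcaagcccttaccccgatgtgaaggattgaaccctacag
Tbx21 -12.0 kb, replicate 2: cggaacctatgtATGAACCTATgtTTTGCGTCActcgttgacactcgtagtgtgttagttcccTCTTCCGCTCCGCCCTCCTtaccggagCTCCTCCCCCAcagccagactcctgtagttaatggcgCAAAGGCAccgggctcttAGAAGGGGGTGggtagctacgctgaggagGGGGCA
Tbx21 -12.0 kb, replicate 1: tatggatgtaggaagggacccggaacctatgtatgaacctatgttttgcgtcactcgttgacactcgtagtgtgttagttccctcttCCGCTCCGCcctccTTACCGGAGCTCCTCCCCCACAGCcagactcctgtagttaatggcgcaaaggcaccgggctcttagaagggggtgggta
The same CTCF core lay whole in a footprint of 31 bp in the library labelled 2 and of 27 bp in the library labelled 1 at 13.4 kb. At -12.0 kb the SP/KLF core GGGCGG, read here as CCGCCC, lay whole in a footprint of the library labelled 2, as in 13.2% of all its peaks, whereas the footprints of the library labelled 1 broke it.

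Eomes (ENSMUSG00000032446.14, chr9:118478212-118486132, plus strand), which encodes eomesodermin, had promoter peaks of 1.25 at 0.397 kb and 2.02 at 1.03 kb in the library labelled 2, both within its exons, with 3 and 4 footprints. The library labelled 1 had no peak and no listed FDR interval at the Eomes promoter. The other peaks of the domain were at starts of neighbours and were open in both libraries. Near starts of Gm33460, the peak at 10.2 kb had 1.26 in the library labelled 2 and 2.14 in the library labelled 1, and the peak at 11.6 kb had 3.93 in the library labelled 2 and 2.18 in the library labelled 1. The promoter peak of Golga4, which encodes a Golgi protein, reaches the edge of the domain at 28.0 kb and had 7.21 in the library labelled 2 and 6.19 in the library labelled 1. The peak at 11.6 kb, chr9:118489741-118489920 in the library labelled 2 and chr9:118489721-118489920 in the library labelled 1, is printed on the plus strand with footprints in capitals, because both libraries had a footprint over the same CTCF core.
Eomes 11.6 kb, replicate 2: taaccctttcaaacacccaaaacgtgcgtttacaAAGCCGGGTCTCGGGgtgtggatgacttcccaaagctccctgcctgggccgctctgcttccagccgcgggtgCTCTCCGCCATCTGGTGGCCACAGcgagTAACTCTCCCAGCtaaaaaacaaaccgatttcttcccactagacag
Eomes 11.6 kb, replicate 1: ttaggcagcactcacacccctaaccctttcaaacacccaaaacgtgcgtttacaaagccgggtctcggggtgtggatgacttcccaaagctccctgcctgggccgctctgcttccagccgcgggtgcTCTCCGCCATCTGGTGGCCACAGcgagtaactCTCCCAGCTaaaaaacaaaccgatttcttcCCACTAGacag
The footprint with that core measured 24 bp in the library labelled 2 and 23 bp in the library labelled 1.

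Across the 8 domains, 10 regions had a peak in both libraries, 5 distal and 5 at neighbours' promoters. The ratio of the signal in the library labelled 2 to that in the library labelled 1 had a median of 1.68 over these regions and of 1.34 over all 35251 shared regions. Since the scaling of the signals is not given, each ratio is read against that common median. The Fasl regions stood highest, with ratios of 10.4 at 21.6 kb and 5.84 at 22.3 kb, above 99.7% and 98.7% of all shared regions. Tbx21 followed with 2.28 at 13.4 kb and 1.87 at -12.0 kb, above 84.2% and 71.8%. The lowest were 0.842 at -13.9 kb of Nkg7 and 0.590 at 10.2 kb of Eomes, above 24.8% and 13.0%. The remaining 4, all at starts of neighbours, lay between 1.17 and 1.80. The ratios have no replicate error.

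**Figure D3:**
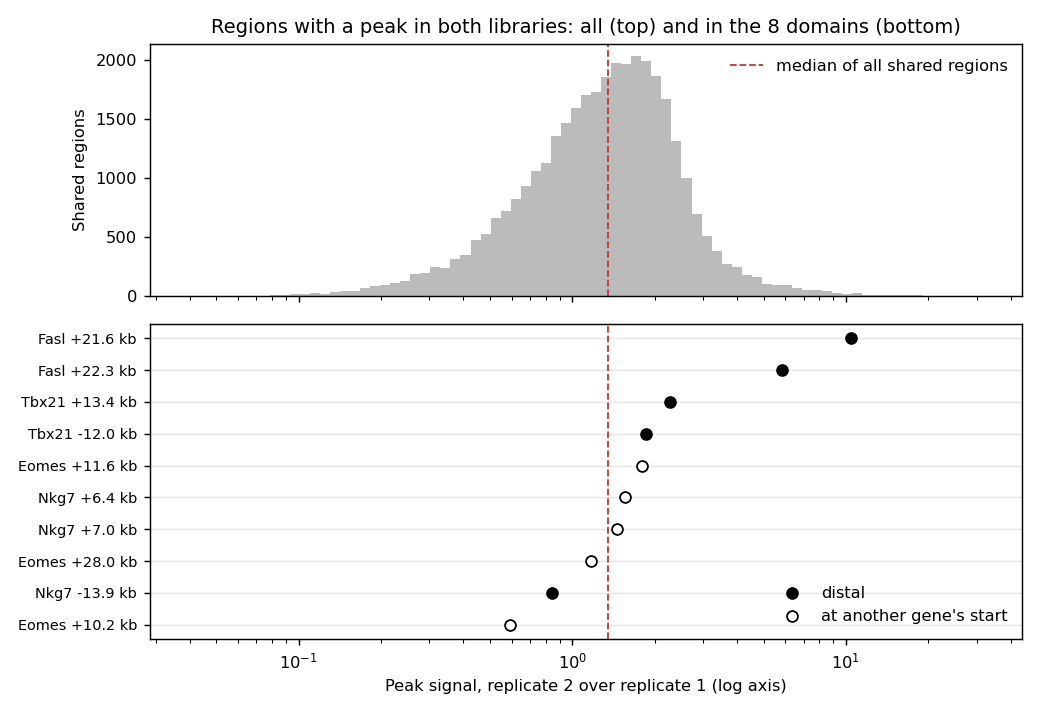
Peak signal in the library labelled 2 over that in the library labelled 1 (log axis) for all 35251 shared regions (top, counted in bins) and for the 10 in the 8 domains (bottom, filled where distal, open at another gene's start). The dashed line is the median of all, 1.34, and both Fasl regions lie far to its right at 10.4 and 5.84.

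The peaks of the 8 domains held 80 whole footprints in the library labelled 2 and 43 in the library labelled 1, which is 3.20 per peak in the library labelled 2 and 2.87 in the library labelled 1. Over all peaks there were 176193 in the library labelled 2 and 225066 in the library labelled 1, or 2.91 per peak in the library labelled 2 and 2.64 in the library labelled 1. The larger number in the domains of the library labelled 2 thus went with its larger number of domain peaks, and the footprints per peak were close to those of all peaks. Their median width in the domains was 10 bp in the library labelled 2 and 9 bp in the library labelled 1, against 10 bp over all footprints of each library. Nkg7 had 18 in the library labelled 2 and 16 in the library labelled 1, Eomes had 15 in the library labelled 2 and 13 in the library labelled 1, and Tbx21 had 18 in the library labelled 2 and 11 in the library labelled 1. The Eomes counts include footprints of the Golga4 promoter peak that lie beyond the edge of the domain, 3 in the library labelled 2 and 4 in the library labelled 1, which leaves 12 in the library labelled 2 and 9 in the library labelled 1. Fasl had 14 in the library labelled 2 and 3 in the library labelled 1. Within peaks, the 9 footprints of Prf1 and the 6 of Gzmk were all in the library labelled 2. With those outside shorter-list peaks counted, the 8 domains held 104 footprints in the library labelled 2 and 58 in the library labelled 1. Gzmk then had 10 and Gzma 2 in the library labelled 2, and each had 0 in the library labelled 1. A footprint of the other library overlapped 28 of the 80 footprints of the library labelled 2 and 30 of the 43 of the library labelled 1. Over all footprints lying whole within peaks these shares were 46.0% in the library labelled 2 and 39.9% in the library labelled 1.

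**Figure D4:**
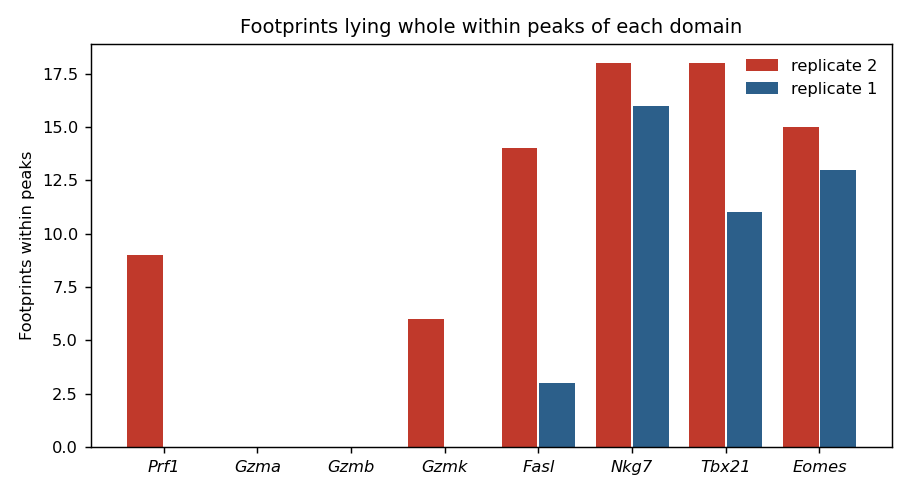
Number of footprints lying whole within shorter-list peaks of each domain (vertical axis), including those of the Golga4 peak beyond the edge of the Eomes domain, with the library labelled 2 left of the library labelled 1. The library labelled 2 has 18 at Nkg7, 15 at Eomes, 14 at Fasl and 9 at Prf1, the library labelled 1 has 16, 13, 3 and 0 at the same genes, and Gzma and Gzmb have 0 in both.

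The CTCF core lay whole in a footprint at 3 of the 10 domain peaks with a partner in the library labelled 2, and at 3 of 10 in the library labelled 1, those at Nkg7, Tbx21 and Eomes above. At domain peaks without a partner the counts were 0 of 15 in the library labelled 2 and 0 of 5 in the library labelled 1. Over all peaks the shares were 16.9% with a partner and 3.03% without in the library labelled 2, and 16.4% and 3.39% in the library labelled 1. The same contrast between peaks with and without a partner was thus present over all peaks. The T-box core GGTGTGA, the sequence bound by the products of Tbx21 and Eomes, was in 0 of the 25 windows in the library labelled 2 and 0 of the 15 in the library labelled 1, where it was in 2.23% of all windows of the library labelled 2 and 2.19% of those of the library labelled 1. The cores searched for TCF/LEF, GATA and NF-kB factors were likewise in 0 of these windows in both libraries. Over all windows their shares were 2.47%, 3.55% and 3.13% in the library labelled 2. In the library labelled 1 they were 2.50%, 5.93% and 2.58%. Cores this rare may be missing from 25 or 15 windows, so no reading is drawn from these counts. Among RefSeq promoters of 300 bp, those of Nkg7 and Gzmk held the T-box core, 2 of the 8, against 3.98% of 32851 promoters. Both of these promoters were without a peak. The cores of RUNX and STAT factors were each also at 2 of the 8, against 5.27% and 8.30%. The ETS core was at 4, against 23.8%. The SP/KLF core at 2, against 35.7%, and the NF-kB core at 0, against 5.82%, were among those that went the other way. With 8 promoters, no reading is drawn from the T-box core.

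Other genes of cytotoxic cells were read from 4 lists of 47 genes in all, of which 30 (63.8%) had a promoter peak in the library labelled 2 and 16 (34.0%) in the library labelled 1. Against the shares over all genes, 60.1% in the library labelled 2 and 63.1% in the library labelled 1, the 47 genes together were near the background in the library labelled 2 and below it in the library labelled 1. In the library labelled 2 the single lists lay on both sides of the background, and in the library labelled 1 each of the 4 lay below it. For granule and exocytosis the counts were 12 of 19 (63.2%) in the library labelled 2 and 8 of 19 (42.1%) in the library labelled 1. The highest signals in the library labelled 2 were 20.4 at Lyst, a regulator of lysosome size, 15.4 at Ctsc, the protease that activates granzymes, 12.0 at Unc13d, which primes granules for fusion, and 12.0 at Lamp1, a lysosome membrane protein. Those in the library labelled 1 were 10.3 at Lyst, 10.1 at Lamp1, 5.60 at Serpinb9, an inhibitor of granzyme B, and 4.53 at Rab27a, which docks granules. The granzyme genes Gzmc, Gzmd and Gzme had no promoter peak in either library, like Gzma, Gzmb and Gzmk.

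Among death ligands, receptors and cytokines, 5 of 9 (55.6%) had a promoter peak in the library labelled 2 and 2 of 9 (22.2%) in the library labelled 1. Fas, the receptor of Fas ligand, had 6.77 in the library labelled 2 and 2.77 in the library labelled 1. Lta and Tnf, genes of cytokines of the tumour necrosis factor family, had 4.11 and 3.20 in the library labelled 2 and none in the library labelled 1. Tnfsf10, the gene of the death ligand TRAIL, had 2.92 in the library labelled 2 and 1.98 in the library labelled 1. Ifng, Ccl3 and Ccl5 had no promoter peak in either library, though Ifng had a longer-list one of 0.562 in the library labelled 2. Of the regulators of cytotoxic cells, 10 of 12 (83.3%) had one in the library labelled 2 and 5 of 12 (41.7%) in the library labelled 1. Their highest signals in the library labelled 2 were 13.2 at Id2, 6.64 at Prdm1, 4.52 at Il12rb1 and 4.45 at Bhlhe40, and those in the library labelled 1 were 7.88 at Id2, 6.51 at Bhlhe40, 4.46 at Prdm1 and 1.43 at Hopx. Zfp683 and Il18rap had none in either library. In the longer lists Zfp683 had one of 0.732 in the library labelled 2 and of 0.345 in the library labelled 1. Surface receptors of cytotoxic cells had 3 of 7 (42.9%) in the library labelled 2, with 2.74 at Cd160, 0.609 at Crtam and 0.447 at Klrd1, and 1 of 7 (14.3%) in the library labelled 1, with 1.38 at Cx3cr1. Klrg1, Klrk1 and Slamf7 had none in either library.

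Natural killer cell markers, which share the cytotoxic program, had a promoter peak at 3 of 8 (37.5%) in the library labelled 2 and 1 of 8 (12.5%) in the library labelled 1. The signals in the library labelled 2 were 3.25 at Nfil3, a transcription factor needed for these cells to develop, 1.66 at Tyrobp, a signalling adaptor, and 1.503 at Il2rb, a chain of the interleukin receptors. Nfil3 was the 1 marker with a promoter peak in the library labelled 1, at 2.88. The other 5 markers, Ncr1, Klrb1c, Klra8, Klrk1 and Klre1, had no promoter peak in either library. Distal peaks per marker had a median of 2 in the library labelled 2 and 1 in the library labelled 1, against 1 and 2 over all genes. The Klrb1c domain held the most of the 8, with 12 in the library labelled 2 and 10 in the library labelled 1. Of the 8 markers, Il2rb and Klrk1 also stand in the lists above. The shares of the 8 effector genes, the lists and the markers can be compared in the bar chart of promoter peaks by list.

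**Figure D5:**
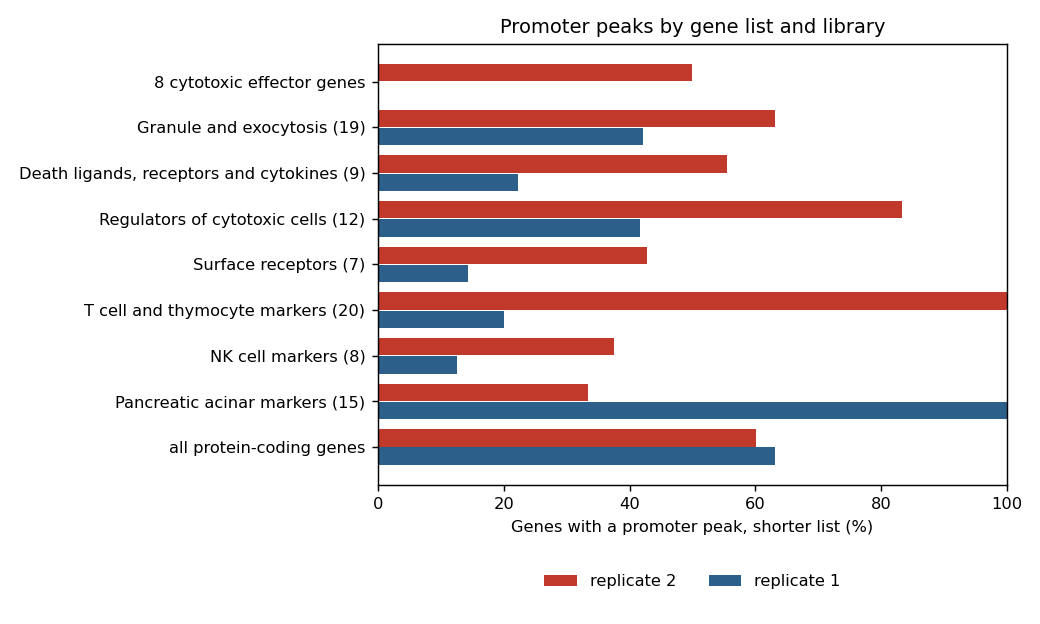
Share of genes with a shorter-list promoter peak (horizontal axis, percent) for the 8 cytotoxic effector genes, the wider lists, marker lists and all protein-coding genes, with the library labelled 2 above the library labelled 1. The 8 genes have no bar in the library labelled 1, T cell markers reach 100% in the library labelled 2, and pancreatic acinar markers reach 100% in the library labelled 1.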

How the data were processed

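The deposited peak lists give a signal per peak, the deposited FDR cut-rate tables a p-value-like FDR per interval with intervals under 0.05 only, and the deposited footprint lists a score, which was 0.01 throughout and was not used. Per the labels the authors' assembly was mm10. The aligner, the callers, their thresholds and the signal scaling were not given in the sources used here. As a result depth is unknown. Each of the 4 peak lists belongs to 1 library. Peaks, footprints and intervals were intersected with GENCODE vM21 genes in Python 3.11.15 with pandas 2.3.3 and numpy 2.4.6. Peaks with 1 bp or more in common counted as shared. Motifs were searched on both strands in windows of 150 bp around peak centres, and sequences and promoters came from RefSeq GRCm38.p6. No peak lay past a chromosome end of that assembly. The intersection was checked on simulated peaks. The genes and lists were chosen with earlier results of these data known. All 8 effector genes are described. Of each wider list, up to 4 genes with the highest promoter signal per library and up to 3 without a promoter peak are named, and of the natural killer markers all 8. Alternatives were the longer lists, other promoter windows and flanks, the stronger 50% of peaks, a reciprocal overlap of 50%, the gene's 5' end as its one start and each library alone.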

Additional observations from a re-analysis of the deposited data

How the results depend on the processing

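As reported, 4 genes had a promoter peak in the library labelled 2, 0 in the library labelled 1 and 0 in both, with 11 distal peaks and 80 footprints in the library labelled 2, 10 and 43 in the library labelled 1, and 5 shared distal regions. The longer lists gave 1 promoter in the library labelled 1, 1 in both, and 8 shared distal regions. They gave 21 distal peaks in the library labelled 2 and 15 in the library labelled 1. A promoter window of 2500 bp, which reached Gzmk, gave 5 promoters in the library labelled 2, 1 in the library labelled 1 and 1 in both. The Gzmk peaks so reached were at different places, -2.35 kb in the library labelled 2 and 1.58 kb in the library labelled 1. A flank of 5 kb gave 4 distal peaks and 41 footprints in the library labelled 2, 3 and 11 in the library labelled 1, and 1 shared region. A flank of 100 kb gave 53 distal peaks and 284 footprints in the library labelled 2, 53 and 254 in the library labelled 1, and 26 shared regions. The stronger 50% of peaks gave 2 promoters, 5 distal peaks and 47 footprints in the library labelled 2, 3 distal peaks in the library labelled 1, and 3 shared regions. Leaving out 1 library left between 0 and 4 promoters and between 10 and 11 distal regions, since 1 library then stands for both. The 4 promoters in the library labelled 2 stayed 4 with the longer list, a window of 500 bp and the gene's 5' end as its one start. No direction reversed. Depth and the scaling of the signal are unknown and limit what an absent peak shows.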
